A study of Mus musculus with 43 samples.

Results

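Cytochrome P450 enzymes (CYPs) are heme proteins of the endoplasmic reticulum and mitochondria that insert 1 oxygen atom into a substrate. A set of 32 genes was described here, chosen as all genes whose mouse symbol starts with Cyp and a digit, without symbols ending in -ps (pseudogenes), and whose mean level over all libraries was at least 0.5 CPM (counts per 1000000 of the library's total count). The table held 24475 gene IDs, of which 101 were Cyp genes without that ending, and 69 of those were left out for their level, including 9 with no count in any library. The genes were chosen by these mean levels, so that being expressed in lung is part of the choice and not a result. The last genes inside the threshold were Cyp46a1 at 0.815 CPM, Cyp4a12b at 0.804 and Cyp2c23 at 0.536, and the first outside were Cyp4f37 at 0.497, Cyp2b23 at 0.307 and Cyp8b1 at 0.302.

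Lung RNA from 43 mouse samples was sequenced as stranded mRNA libraries. All samples carried the genotype Il33hu/hu, controls included, and the strain was C57BL/6NTac (75%) / 129S6SvEvTac (25%). The groups were saline (7 libraries, with no time label), house dust mite (HDM, an airway allergen) for 4 weeks (10), HDM for 15 weeks with no antibody (7), HDM for 15 weeks with an isotype control antibody (4) and HDM for 15 weeks with an anti-IL-33 antibody (15). Age, sex and the doses of HDM and antibody are not given in the labels. IL-33 is a cytokine that barrier cells release on damage. The labels do not say whether samples came from separate animals, so p-values measure only the spread between these samples. In whole lung, fewer cells of a type and less RNA per cell cannot be told apart.

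Library totals ran from 4795214 to 12599467 counts. The sample numbers in the labels fell into 2 separate ranges (22 and 21 libraries), called number ranges 1 and 2 here, whose meaning the labels leave unstated. A library at 15 weeks without antibody (replicate 1) and a library at 4 weeks (replicate 3) stood apart, with median correlations of 0.909 and 0.921 with their own groups across genes. Replicate 7 of the anti-IL-33 group followed at 0.948. Log2 fold changes come from edgeR's quasi-likelihood test over 15598 genes with a term for the number range, with their standard error (SE), and rose or fell means an adjusted p (Benjamini-Hochberg, over all genes) under 0.05. They are scaled by trimmed mean of M values (TMM) and so need not equal ratios of mean CPM.

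P450 enzymes of families 1 to 3 mainly oxidise foreign compounds, and their substrates in lung include naphthalene and other inhaled aromatic compounds. Much of this activity sits in club cells, the secretory cells of the small airways. Family 4 enzymes hydroxylate fatty acids and eicosanoids at their ends, and the families numbered 7 and above mostly act on sterols, bile acids, vitamins A and D and steroid hormones. Microsomal P450s take electrons from the reductase Por and mitochondrial ones from ferredoxin.

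Upstream sequences of 4 genes are shown, those on which the results turn, the most abundant pair that fell (Cyp2f2, Cyp4b1), the sterol enzyme that rose (Cyp51) and the classical target of the aryl hydrocarbon receptor (Cyp1a1). They are RefSeq sequences on build GRCm38.p6, read 5′ to 3′ on the gene's strand from 250 bases before the start site and ended before the first annotated exon. Capitals mark 4 motifs searched on both strands: GCGTG (core of the aryl hydrocarbon receptor site), AGGTCA (nuclear receptor binding element), TCACNCCAC (sterol regulatory element) and the TATA box, spelled TATAAA.
Cyp2f2, chr7:27119705-27119908, plus strand: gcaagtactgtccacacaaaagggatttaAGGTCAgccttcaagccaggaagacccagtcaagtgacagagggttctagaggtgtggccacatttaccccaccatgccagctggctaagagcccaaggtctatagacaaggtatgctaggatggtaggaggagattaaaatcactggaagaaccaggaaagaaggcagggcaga
Cyp4b1, chr4:115647724-115647971, minus strand: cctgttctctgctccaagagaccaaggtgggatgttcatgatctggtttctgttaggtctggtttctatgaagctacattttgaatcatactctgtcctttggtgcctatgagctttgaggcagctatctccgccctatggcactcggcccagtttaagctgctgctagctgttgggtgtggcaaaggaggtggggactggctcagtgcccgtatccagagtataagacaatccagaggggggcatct
Cyp51, chr5:4104747-4104947, minus strand: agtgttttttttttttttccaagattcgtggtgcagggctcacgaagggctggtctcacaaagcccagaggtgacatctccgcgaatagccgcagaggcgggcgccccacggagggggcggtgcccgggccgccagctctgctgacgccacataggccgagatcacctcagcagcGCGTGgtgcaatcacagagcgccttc
Cyp1a1, chr9:57697363-57697612, plus strand: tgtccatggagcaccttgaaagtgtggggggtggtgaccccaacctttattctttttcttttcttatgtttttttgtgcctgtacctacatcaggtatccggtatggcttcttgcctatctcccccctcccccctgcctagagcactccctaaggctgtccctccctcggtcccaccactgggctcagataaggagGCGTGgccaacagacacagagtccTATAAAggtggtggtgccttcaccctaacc

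RefSeq entries were matched for 25 of the 32 genes. GCGTG stood in the 250-base window of 11 of the 25, against 28.2% of the 32851 promoters in that table. AGGTCA stood in 2 (Cyp2f2 and Cyp11a1), against 14.02% of all promoters, and TATAAA in 4 (Cyp1a1, Cyp2a5, Cyp2e1 and Cyp26b1), against 12.4%. TCACNCCAC stood in none of the 25, Cyp51 included, against 1.05%. Only this spelling of the sterol regulatory element was searched, so other spellings of it would not be marked. In Cyp1a1 the receptor core and the TATA box began 54 and 30 bases before the start site. A match is a description of the letters and not evidence of binding, and the window shown for Cyp1a1 lies within the span that RefSeq gives that gene.

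In saline lung the P450 genes together made 3794 ± 446 CPM (SD, n = 7), and Cyp2f2 alone made 57.3% ± 4.24 of that sum. The sum was 1290.5 ± 235 CPM at 4 weeks of HDM (n = 10), 956 ± 204 at 15 weeks (n = 7), 1018 ± 152 with the isotype (n = 4) and 1799 ± 613 with anti-IL-33 (n = 15). Without Cyp2f2 the order was the same, with 1606 ± 134 CPM in saline, 812 ± 96.6 at 4 weeks, 600.4 ± 95.3 at 15 weeks, 674 ± 82.7 with the isotype and 960.4 ± 221 with anti-IL-33. Per kilobase (kb) of exon, which lets genes be compared, Cyp2f2 stood at 1080 CPM per kb in saline, Cyp4b1 at 276, Cyp2b10 at 121, Cyp2s1 at 34.8 and Cyp26b1 at 19.8. All others lay below 18 CPM per kb in saline, down to Cyp11a1 at 0.202.

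Of the 32 genes, 16 fell and 4 rose at 4 weeks of HDM against saline, where 56.8% of all genes tested were called, 27.5% lower and 29.3% higher. At 15 weeks against saline 18 fell and 6 rose, where 59.2% of all genes were called, 28.1% lower and 31.2% higher. Both counts of genes that fell include Cyp2c23, whose mean level reached 0.5 CPM only with the saline libraries included. The median log2 fold change of the set was -0.51 at 4 weeks and -0.59 at 15 weeks, against 0.01 and 0.01 over all genes tested. These 2 comparisons share the saline libraries, so their likeness is not independent evidence. Without TMM scaling the median over all genes was -0.17 at 15 weeks, and the set then had 21 lower and 4 higher calls. Every called gene had the same sign in each number range alone. At 4 weeks 11 of the 20 were called in range 1 and 17 in range 2, and at 15 weeks 15 and 19 of the 24. The ranges are parts of the libraries that gave the calls, so a shared sign, here and below, is not independent evidence.

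**Figure D1:**
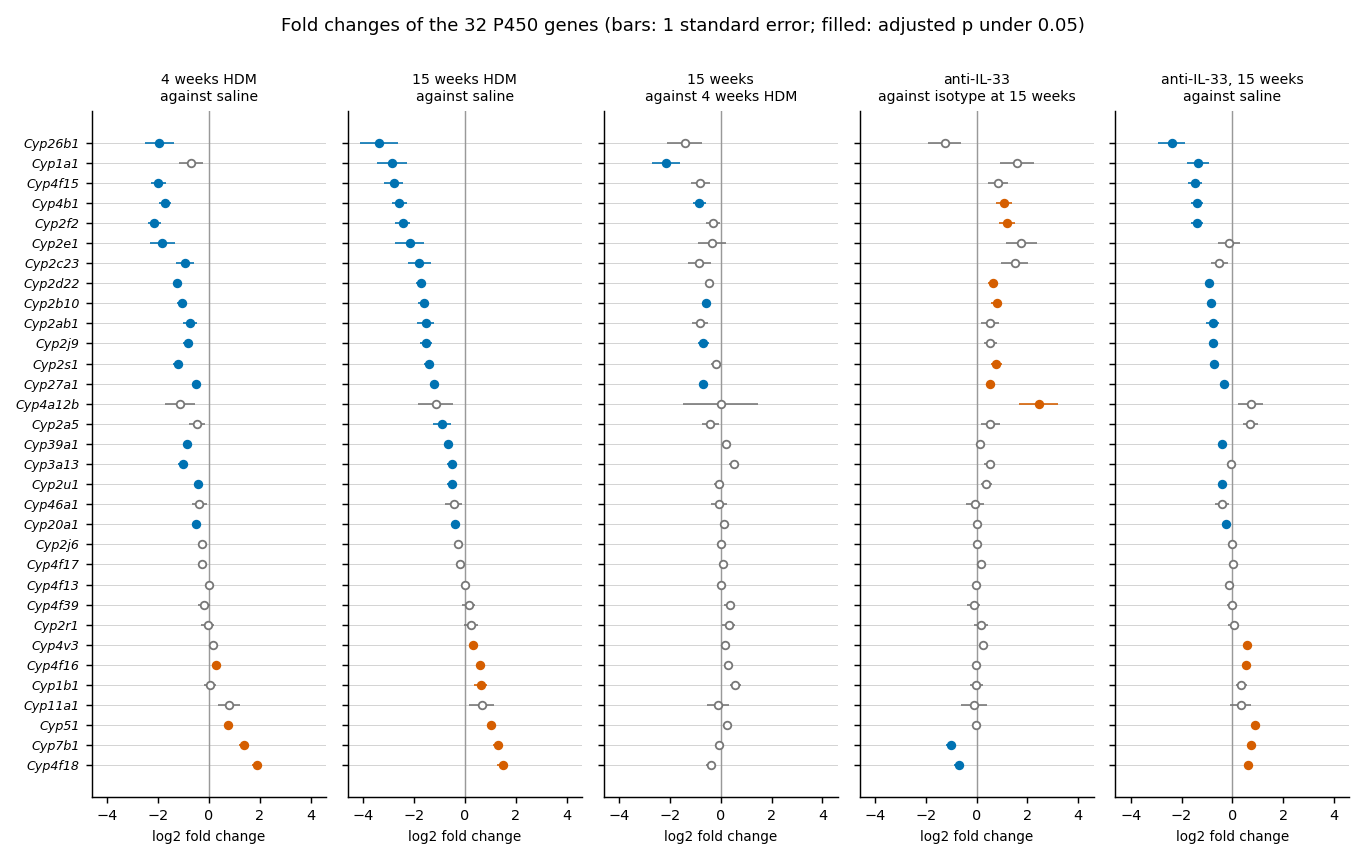
Log2 fold change (horizontal axes, bars 1 SE) of the 32 P450 genes in 5 comparisons, ordered by their value at 15 weeks of HDM against saline; filled points have an adjusted p under 0.05 (blue lower, orange higher) and open points do not. At 15 weeks against saline 18 genes are filled on the lower side and 6 on the higher, and with anti-IL-33 against isotype 7 are filled on the higher side and 2 on the lower.

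Cyp2f2, which activates naphthalene in mouse club cells, lay between 1658 and 2836 CPM (median 2073) in saline, 271 and 805 (448) at 4 weeks, 125 and 550.2 (349) at 15 weeks without antibody and 309 and 1556 (888) with anti-IL-33, and the isotype libraries read 345, 450.1, 289.8 and 294 CPM. Every HDM library, with or without antibody, was below every saline library. The log2 fold change was -2.15 (SE 0.26, edgeR adjusted p = 1.22e-08) at 4 weeks and -2.45 (SE 0.30, adjusted p = 1.35e-08) at 15 weeks, and -0.30 (adjusted p = 0.444) between the 2 times.

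Cyp4b1, a family 4 enzyme of lung that also activates foreign compounds, read 549 to 714 CPM (median 623) in saline, 102 to 272 (181) at 4 weeks, 52.0 to 154 (79.3) at 15 weeks and 78.9 to 413 (255) with anti-IL-33, with isotype libraries at 119, 129.6, 62.0 and 100.4 CPM. The saline libraries again stood above all others. Its log2 fold change was -1.73 (SE 0.25) at 4 weeks and -2.58 (SE 0.29) at 15 weeks, and it fell further from 4 to 15 weeks, by -0.84 (SE 0.26, edgeR adjusted p = 0.0178), with 5 of 7 libraries at 15 weeks below all 10 at 4 weeks.

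Cyp2b10, a drug-metabolising enzyme and the usual target of the receptor CAR, spanned 216 to 305 CPM (median 258) in saline, 89.8 to 168 (118) at 4 weeks, 52.7 to 119 (70.6) at 15 weeks and 63.6 to 245 (152) with anti-IL-33, and 81.8, 99.98, 81.4 and 56.3 CPM with the isotype. Both times lay wholly below saline, and 1 anti-IL-33 library reached into the saline range. Cyp2s1, an extrahepatic enzyme of epithelia, spanned 128 to 232 CPM (167) in saline, 44.6 to 106 (66.0) at 4 weeks, 22.98 to 79.4 (48.4) at 15 weeks and 60.1 to 143 (99.4) with anti-IL-33, and 58.1, 56.9, 42.1 and 58.9 CPM with the isotype. Here 3 of the 15 anti-IL-33 libraries lay within the saline range and the other 12 below it. Cyp2d22, the mouse enzyme nearest to human CYP2D6, spanned 56.7 to 76.7 CPM (68.97) in saline, 19.5 to 41.3 (25.6) at 4 weeks, 11.998 to 21.2 (17.96) at 15 weeks and 17.6 to 50.8 (34.3) with anti-IL-33, and 19.9, 23.6, 15.0 and 22.6 CPM with the isotype. All 3 genes fell at both times, with log2 fold changes of -1.06, -1.24 and -1.27 at 4 weeks and -1.62, -1.42 and -1.72 at 15 weeks in that order.

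**Figure D2:**
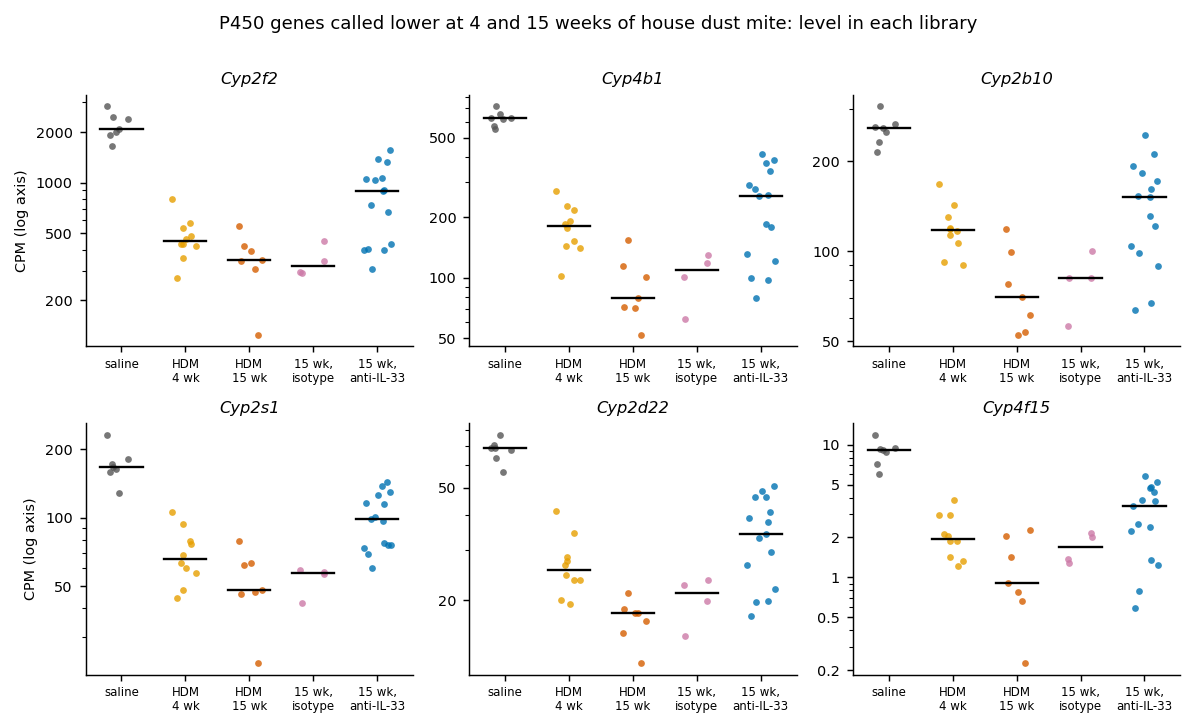
CPM on a log axis in each of the 43 libraries (points) by group, with the group median (line), for 6 P450 genes called lower at 4 and 15 weeks of HDM. Saline libraries lie above all HDM libraries without antibody in each panel, and the anti-IL-33 libraries spread between, as for Cyp2f2 (309 to 1556 CPM).

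Cyp2j9, one of the arachidonic acid epoxygenases, read 7.84 to 11.2 CPM (median 9.22) in saline, 3.26 to 7.09 (5.27) at 4 weeks, 1.304 to 4.28 (2.82) at 15 weeks and 1.95 to 8.56 (5.54) with anti-IL-33, with 3.23, 4.84, 2.44 and 3.42 CPM in the isotype libraries. It fell at 4 weeks (-0.84, SE 0.20), at 15 weeks (-1.53, SE 0.24) and between them (-0.69, SE 0.22, edgeR adjusted p = 0.0241), although the last value was -1.09 in number range 1 and -0.17 in range 2. Its neighbour Cyp2j6 did not pass the test (log2 -0.28 at both times, adjusted p = 0.0512 and 0.0868), with means of 17.6 ± 0.364 CPM in saline, 13.8 ± 2.61 at 4 weeks and 12.3 ± 4.03 at 15 weeks.

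Cyp2ab1, an enzyme of unsettled function, had 1.68 to 4.80 CPM (median 1.86) in saline, 0.521 to 3.55 (1.49) at 4 weeks, 0.608 to 1.48 (0.792) at 15 weeks, 0.615 to 3.92 (1.54) with anti-IL-33 and 0.718, 1.42, 1.16 and 1.07 CPM with the isotype. The 15-week libraries lay below all saline libraries, while at 4 weeks 8 of 10 did. Cyp2c23, an epoxygenase best known from kidney, had 0.443 to 1.26 CPM (0.806) in saline, 0.174 to 0.834 (0.349) at 4 weeks, 0 to 0.605 (0.340) at 15 weeks, 0.187 to 1.70 (0.550) with anti-IL-33 and 0.239, 0.472, 0.116 and 0.0976 CPM with the isotype. It had no count in 2 libraries at 15 weeks, which allows up to 0.268 and 0.331 CPM there (3 counts of each total, counting error only), so its fitted falls (-0.95 and -1.79) rest on few reads. The mean level of Cyp2c23 reached 0.5 CPM only with the saline libraries included, so these falls are also partly fixed by the choice of genes. Cyp2u1, a fatty acid hydroxylase, fell at both times (-0.43 and -0.51), from a mean of 1.94 ± 0.441 CPM in saline to 1.40 ± 0.305 and 1.19 ± 0.184.

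Cyp2e1, which oxidises ethanol and small solvents, read 8.37 to 23.7 CPM (median 12.8) in saline, 1.13 to 9.91 (3.01) at 4 weeks, 1.13 to 5.30 (3.39) at 15 weeks and 2.27, 6.73, 3.59 and 4.59 CPM with the isotype. It fell at 4 weeks (-1.83, SE 0.48, edgeR adjusted p = 0.00153) and at 15 weeks (-2.17, SE 0.56, adjusted p = 0.00121), though in number range 1 alone neither passed (-1.94 and -2.36). With anti-IL-33 it ran from 3.68 to 125 CPM (median 8.69), and the high value came from replicate 7 alone, since the other 14 libraries ended at 12.5 CPM. In that library the 5 fat cell markers (such as Adipoq and Plin1) summed to 423 CPM, against 3.48 to 35.2 CPM in the other 14, and their part in the result was not tested. Without it, Cyp2e1 in the anti-IL-33 group stayed below saline (-0.80, SE 0.24, adjusted p = 0.00691), a call that was absent with it (-0.15, adjusted p = 0.829). Against the isotype, Cyp2e1 did not pass (1.76, SE 0.62, edgeR adjusted p = 0.0696), nor without replicate 7 (0.89, SE 0.34, adjusted p = 0.0918), and it passed without the 2 libraries that stood apart (1.76, SE 0.63, adjusted p = 0.0342).

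Cyp2a5, which oxidises nicotine and coumarin, fell only at 15 weeks among the contrasts with saline (-0.89, SE 0.36, edgeR adjusted p = 0.0304), with means of 18.6 ± 9.48 CPM in saline, 13.1 ± 2.77 at 4 weeks, 9.63 ± 6.40 at 15 weeks, 20.4 ± 3.41 with the isotype and 31.5 ± 17.2 with anti-IL-33. Its transcript is 98.2% identical to that of Cyp2a4, so that reads may be split unevenly between them. Cyp3a13, a steroid and drug oxidising enzyme, had 4.70 to 7.14 CPM (median 5.32) in saline, 1.56 to 4.58 (2.41) at 4 weeks, 2.35 to 4.94 (3.76) at 15 weeks, 1.95 to 7.67 (5.08) with anti-IL-33 and 3.35, 3.66, 3.71 and 3.03 CPM with the isotype. It fell by -1.04 (SE 0.18) at 4 weeks and -0.52 (SE 0.20) at 15 weeks.

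In family 1 the data differed by gene and by number range. Cyp1a1, the inducible enzyme for polycyclic aromatic compounds, read 3.63 to 18.7 CPM (median 7.81) in saline, 0.763 to 19.1 (5.17) at 4 weeks, 0.174 to 3.84 (0.913) at 15 weeks, 0.765 to 8.55 (3.92) with anti-IL-33 and 2.27, 1.298, 0.232 and 1.27 CPM with the isotype. It did not pass at 4 weeks (-0.73, edgeR adjusted p = 0.186) and fell at 15 weeks against saline (-2.88, SE 0.58, adjusted p = 6.63e-05) and against 4 weeks (-2.15, SE 0.55, adjusted p = 0.00502). In number range 1 the difference between 15 and 4 weeks was -3.91, with 4.87 to 19.1 CPM at 4 weeks against 0.174 to 1.01 at 15 weeks, and in range 2 it was -0.33 with no call, with 0.763 to 5.69 against 1.10 to 3.84 CPM. Cyp1b1, which oxidises estrogens and aromatic compounds outside the liver, rose only at 15 weeks (0.62, SE 0.26, adjusted p = 0.0343), with 17.99 ± 4.36 CPM in saline and 23.1 ± 11.8 at 15 weeks, where 1 of 7 libraries lay above all of saline and 2 below.

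**Figure D3:**
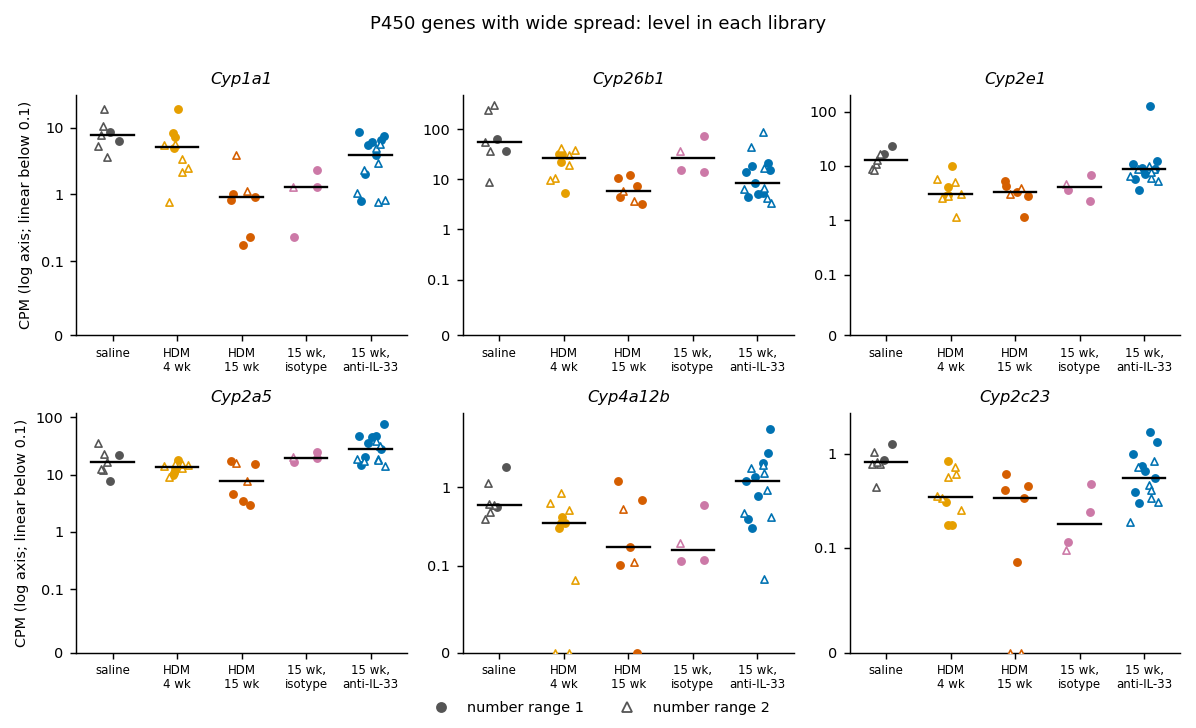
CPM in each library (log axis, linear below 0.1) for 6 P450 genes with a wide spread within groups; filled circles are libraries of number range 1, open triangles of range 2, and lines are group medians. Cyp2e1 reaches 125 CPM in 1 anti-IL-33 library, and 2 saline libraries stand at 244 and 299 CPM for Cyp26b1.

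Among the fatty acid hydroxylases of family 4, the subfamily Cyp4f moved in both directions. Its 6 genes summed to 83.5 ± 7.98 CPM in saline, 119 ± 15.7 at 4 weeks, 95.2 ± 15.7 at 15 weeks, 96.4 ± 7.07 with the isotype and 88.9 ± 8.08 with anti-IL-33. Cyp4f18, a leukotriene B4 hydroxylase of myeloid cells, read 9.25 to 23.8 CPM (median 16.8) in saline, 43.8 to 84.2 (53.8) at 4 weeks, 20.98 to 50.9 (39.1) at 15 weeks, 12.2 to 33.8 (23.8) with anti-IL-33 and 28.97, 34.2, 47.8 and 34.8 CPM with the isotype. All 10 libraries at 4 weeks and 6 of 7 at 15 weeks lay above saline. It rose by 1.89 (SE 0.19, edgeR adjusted p = 2.63e-10) at 4 weeks and 1.49 (SE 0.21, adjusted p = 1.32e-07) at 15 weeks.

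Cyp4f15 fell, with 6.03 to 11.9 CPM (median 9.12) in saline, 1.22 to 3.82 (1.96) at 4 weeks, 0.226 to 2.28 (0.907) at 15 weeks, 0.585 to 5.84 (3.48) with anti-IL-33 and 2.15, 2.01, 1.28 and 1.37 CPM with the isotype. Every HDM library lay below every saline library, and the fall was -1.997 (SE 0.30) at 4 weeks and -2.80 (SE 0.38) at 15 weeks. Cyp4f16 rose slightly at both times (0.29 and 0.59), from 21.4 ± 3.80 CPM to 25.1 ± 2.53 and 27.5 ± 2.84, and is 96.1% identical to Cyp4f37 over 1607 bases, so its counts are uncertain to that degree. Cyp4f13 (22.9 ± 2.19 CPM in saline), Cyp4f17 (5.98 ± 0.658) and Cyp4f39 (7.77 ± 1.86), the last needed for skin lipids, were called in none of the 6 comparisons.

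Cyp4v3, the mouse counterpart of the fatty acid hydroxylase CYP4V2, read 49.2 to 73.2 CPM (median 66.7) in saline, 45.9 to 83.6 (71.4) at 4 weeks, 45.4 to 85.7 (76.5) at 15 weeks, 78.1 to 106 (93.5) with anti-IL-33 and 60.2, 82.3, 72.8 and 82.4 CPM with the isotype. It rose at 15 weeks (0.33, SE 0.10, edgeR adjusted p = 0.00494) and not at 4 weeks (0.15, adjusted p = 0.139), and in number range 1 it was 0.17 with no call. Cyp4a12b, an arachidonic acid hydroxylase, had 0.392 to 1.82 CPM (0.589) in saline, 0 to 0.853 (0.351) at 4 weeks, 0 to 1.22 (0.174) at 15 weeks, 0.0850 to 5.64 (1.19) with anti-IL-33 and 0.120, 0.590, 0.116 and 0.195 CPM with the isotype. It passed in neither contrast of HDM alone with saline. No count was found in 3 libraries, which allows up to 0.254 to 0.340 CPM, and its transcript is 98.2% identical to that of Cyp4a12a.

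The sterol enzymes split by gene. Cyp51, the lanosterol demethylase of cholesterol synthesis, read 29.99 to 44.7 CPM (median 35.1) in saline, 46.0 to 72.6 (63.1) at 4 weeks, 29.6 to 86.7 (69.8) at 15 weeks, 45.2 to 90.9 (65.1) with anti-IL-33 and 72.5, 61.9, 55.5 and 63.0 CPM with the isotype. All 4-week, isotype and anti-IL-33 libraries lay above saline, and at 15 weeks 6 of 7 did. The lowest, at 29.6 CPM, was the library that stood apart. Cyp51 rose by 0.76 (SE 0.13, edgeR adjusted p = 7.97e-06) and 1.01 (SE 0.14, adjusted p = 1.97e-07). Of 19 other tested genes of sterol synthesis and uptake, 10 rose and none fell at 4 weeks, where 29.3% of all genes rose, and 13 rose and none fell at 15 weeks, where 31.2% did. The list's median log2 fold change was 0.27 and 0.45, against 0.01 and 0.01 over all genes. Those that rose included Dhcr7 (1.39 and 1.93), Mvd (1.23 and 1.70) and Fdps (0.85 and 1.23).

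Cyp7b1, which 7α-hydroxylates oxysterols such as 25-hydroxycholesterol, read 4.202 to 7.71 CPM (median 5.79) in saline, 10.97 to 16.1 (15.3) at 4 weeks, 7.21 to 18.1 (13.3) at 15 weeks, 4.94 to 15.1 (9.11) with anti-IL-33 and 17.4, 17.2, 22.03 and 16.8 CPM with the isotype. It rose by 1.36 (SE 0.18, edgeR adjusted p = 1.02e-07) at 4 weeks and 1.29 (SE 0.20, adjusted p = 8.97e-07) at 15 weeks, with 10 of 10 and 6 of 7 libraries above saline. Around it in the oxysterol pathway, Ch25h, which makes 25-hydroxycholesterol, rose by 3.37 and 3.44, and Hsd3b7, the next enzyme after Cyp7b1, by 0.43 and 0.85. Of the 7 tested genes of that list, 3 rose and 1 fell (Star) at each time. That share is near that of all genes, 56.8% called at 4 weeks and 59.2% at 15 weeks.

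Cyp27a1, the mitochondrial sterol 27-hydroxylase, read 25.8 to 34.3 CPM (median 28.03) in saline, 17.3 to 24.1 (19.2) at 4 weeks, 7.21 to 14.8 (10.6) at 15 weeks, 15.3 to 30.5 (23.6) with anti-IL-33 and 13.2, 16.8, 11.8 and 16.9 CPM with the isotype. The saline, 4-week and 15-week libraries did not overlap. It fell by -0.52 (SE 0.12) at 4 weeks, -1.20 (SE 0.13, edgeR adjusted p = 1.62e-09) at 15 weeks and -0.69 (SE 0.12, adjusted p = 0.000183) between them. Cyp39a1, which hydroxylates 24-hydroxycholesterol, fell at both times (-0.88 and -0.67), from 31.9 ± 2.28 CPM to 16.8 ± 3.74 and 18.04 ± 5.55. Cyp46a1, the brain cholesterol 24-hydroxylase (1.14 ± 0.361 CPM in saline), and Cyp2r1, a vitamin D 25-hydroxylase (1.45 ± 0.601), were called in no comparison.

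**Figure D4:**
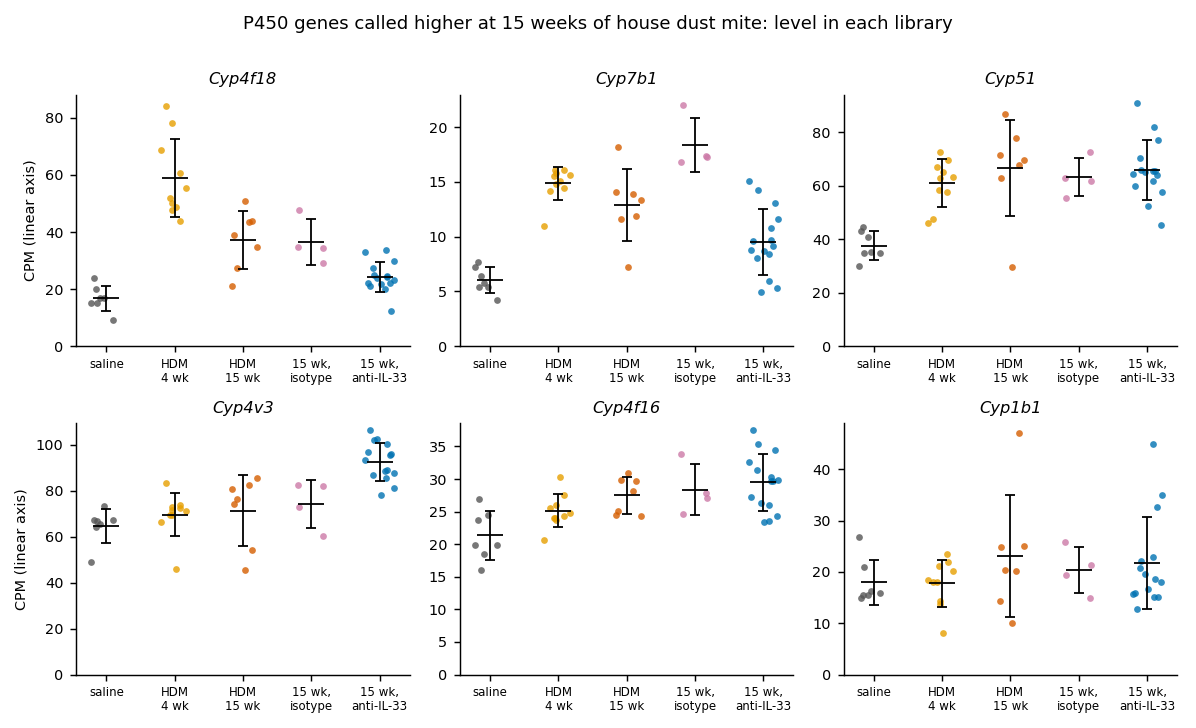
CPM on linear axes in each library (points) by group with mean and SD (bars) for the 6 P450 genes called higher at 15 weeks of HDM. Cyp4f18 and Cyp7b1 rise from saline to 4 weeks and lie lower with anti-IL-33 than with the isotype, whereas the mean of Cyp51 at 15 weeks is 66.7 CPM without antibody, 63.2 with the isotype and 65.9 with anti-IL-33.

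Cyp26b1, which breaks down retinoic acid, varied widely within groups. Its saline libraries ran from 8.69 to 299 CPM (median 54.2), with replicates 4 and 6 at 299 and 244 CPM and the other 5 at 8.69 to 64.3. Values were 5.21 to 41.6 CPM (26.3) at 4 weeks, 3.19 to 12.2 (5.89) at 15 weeks, 3.31 to 88.6 (8.24) with anti-IL-33 and 14.1, 73.0, 15.3 and 37.3 CPM with the isotype. It fell at 4 weeks (-1.95, SE 0.59, edgeR adjusted p = 0.00506) and at 15 weeks (-3.37, SE 0.75, adjusted p = 0.000249). Without the pair of high saline libraries the first was lost (-0.72, adjusted p = 0.308) and the second held (-2.24, adjusted p = 0.00573). Each isotype library lay above all 7 libraries at 15 weeks without antibody, but the difference did not pass (2.23, SE 0.77, adjusted p = 0.798). Of 14 tested genes of the retinoid list, 6 rose and 4 fell at 4 weeks (median log2 fold change 0.64). At 15 weeks 5 rose and 3 fell (median 0.28), a share near that of all genes. Over all genes 56.8% were called at 4 weeks and 59.2% at 15 weeks, with medians of 0.01 and 0.01. The storage enzyme Lrat fell by -1.76 and -2.16 and the retinoic acid forming Aldh1a1 by -1.22 and -1.95, while Aldh1a3 rose by 2.17 and 1.62.

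The remaining genes were Cyp20a1, an orphan enzyme, which fell at both times (-0.51 and -0.38, from 26.7 ± 2.91 CPM to 18.2 ± 3.93 and 18.1 ± 2.84), and Cyp11a1, the first enzyme of steroid hormone synthesis (0.971 ± 0.525 CPM in saline), which was called in no comparison. Of the adrenal markers, Hsd3b1 and Mc2r had no count in 40 and 25 of the 43 libraries. The others, Star and Akr1b7, had none in 0 and 1, with means of 3.74 and 1.16 CPM. Of the hepatocyte markers, Ttr and Fgb had no count in any library, and Cps1 and Apoa1 had none in 35 and 25. Serpina1a and Tat had none in 13 each, Apoa2 in 5, Alb in 4 and Ahsg in 0, and Ahsg had the highest mean, 2.36 CPM.

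By place, 16 genes lay in 6 clusters with other Cyp genes less than 500000 bases apart, and 16 lay alone. The cluster at chr7:25802469-27158564 (GRCm38.p6) held 13 Cyp genes, of which 4 were expressed at the threshold: Cyp2s1, Cyp2b10, Cyp2a5 and Cyp2f2. At 15 weeks all 4 fell, by -1.42, -1.62, -0.89 and -2.45. The cluster at chr17:32452697-32947415 held 8, of which 5 were expressed, and these went apart at 15 weeks, with Cyp4f15 at -2.80, Cyp4f16 at 0.59 and Cyp4f13, Cyp4f17 and Cyp4f39 not called. In the cluster at chr4:115106323-115647721, Cyp4b1 and Cyp4a12b were the only 2 of 11 at the threshold.

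Between 15 and 4 weeks of HDM, without antibody at both times, 5 P450 genes fell (Cyp4b1, Cyp2b10, Cyp27a1, Cyp2j9 and Cyp1a1) and none rose, where 21.4% of all genes were called, 9.08% lower and 12.3% higher. At an unadjusted edgeR p under 0.05, 13 of the 32 passed, against 5495 of all 15598 genes tested, a similar share. Cyp2b10 moved by -0.56 (SE 0.19, edgeR adjusted p = 0.0305), with 5 of 7 libraries at 15 weeks below all of those at 4 weeks. All 5 had the same sign in both number ranges, but none passed in range 2, where the 15-week group has 2 libraries. With an offset for GC content and exon length the split was 6 lower and 4 higher, and without TMM scaling 8 lower and none higher. The median log2 fold change over all genes was -0.02 with that offset and -0.14 without TMM scaling, and shares called over all genes are not given for these settings.

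With anti-IL-33 against the isotype at 15 weeks, the question was whether blocking IL-33 changes these levels. Here 7 P450 genes rose and 2 fell, where 6.71% of all genes were called, 3.58% higher and 3.14% lower. Cyp2f2 rose by 1.20 (SE 0.32, edgeR adjusted p = 0.0256), Cyp4b1 by 1.08 (SE 0.31, adjusted p = 0.0351), Cyp2b10 by 0.79 (SE 0.22, adjusted p = 0.0329), Cyp2s1 by 0.77 (SE 0.22, adjusted p = 0.0329), Cyp2d22 by 0.65 (SE 0.20, adjusted p = 0.0423) and Cyp27a1 by 0.53 (SE 0.14, adjusted p = 0.0234). Cyp4a12b also rose (2.44, SE 0.77, adjusted p = 0.0474), at 1.44 ± 1.39 CPM against 0.255 ± 0.226. Its mean over all libraries reached 0.5 CPM only with the anti-IL-33 libraries included. Its place among the 7 is thus partly fixed by the choice of genes. Cyp7b1 fell by -1.02 (SE 0.19, adjusted p = 0.00155), with all 15 anti-IL-33 libraries below all 4 isotype libraries, and Cyp4f18 fell by -0.71 (SE 0.20, adjusted p = 0.0299), with 12 of 15 below. Cyp51 did not pass (-0.02, SE 0.15, adjusted p = 0.938).

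These calls rest on 4 isotype libraries. Leaving out replicate 1 or replicate 3 of the isotype left 1 P450 call (Cyp7b1) and 94 or 58 calls over all genes against 1047, leaving out replicate 4 left 3, and leaving out replicate 2 left 9. The log2 fold change of Cyp2f2 lay between 1.13 and 1.34 over these 4 fits, that of Cyp4f18 between -0.80 and -0.53, and that of Cyp4a12b between 2.18 and 3.09, the highest without replicate 2. Within number ranges 1 and 2 the 9 genes kept their sign, with 1.21 and 1.29 for Cyp2f2, 1.06 and 1.12 for Cyp4b1, -1.16 and -0.74 for Cyp7b1 and -0.79 and -0.47 for Cyp4f18, and only Cyp7b1 in range 1 passed.

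The isotype and the untreated groups at 15 weeks differed in no P450 gene by edgeR (0.0% of all genes called), with 4 of the 32 at an unadjusted p under 0.05 against 5.98% of all genes. DESeq2 called 8 genes overall and limma-voom none, and none of the P450 genes by either. Set against the 7 libraries at 15 weeks without antibody, anti-IL-33 gave 17 higher and 2 lower P450 genes, where 35.8% of all genes were called, 15.9% higher and 19.9% lower. The 17 include Cyp4a12b and Cyp2c23, whose mean levels reached 0.5 CPM only with the anti-IL-33 libraries included. In that contrast Cyp2f2 stood at 1.06 (SE 0.25), Cyp4b1 at 1.18 (SE 0.25), Cyp27a1 at 0.86 (SE 0.12), Cyp2a5 at 1.599 (SE 0.32), Cyp4f18 at -0.86 (SE 0.16) and Cyp7b1 at -0.55 (SE 0.16). This contrast shares the anti-IL-33 libraries with the one against the isotype. For Cyp2a5 the isotype group stood 1.05 above no antibody and anti-IL-33 0.55 above the isotype, and neither was called.

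**Figure D5:**
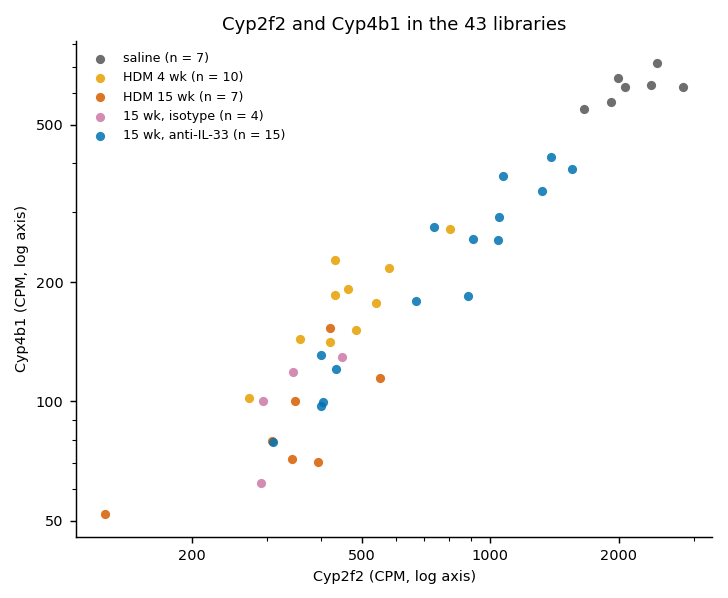
Cyp2f2 against Cyp4b1 in each of the 43 libraries (CPM, both axes log), coloured by group. The saline libraries lie at the upper right, and 10 of the 15 anti-IL-33 libraries lie above all 11 other 15-week libraries for both genes.

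The anti-IL-33 libraries were not uniform. For Cyp2f2, 10 of 15 lay above all 11 other 15-week libraries, and these 10 also did so for Cyp4b1, Cyp2b10 and Cyp2d22. Of the 7 genes that rose against the isotype, 6 libraries lay above in all 7 and 3 libraries in none. The 7 genes were called from these same libraries, and Cyp4a12b is in the set only through them. Cyp2f2 varied 5.03-fold among the 15 libraries, against 1.36-fold for Cyp4v3.

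Against saline, the anti-IL-33 group had 14 P450 genes lower and 5 higher, where 38.6% of all genes were called, 18.5% lower and 20% higher. Cyp2f2 stood at -1.38 (SE 0.23, edgeR adjusted p = 9.18e-06), Cyp4b1 at -1.40 (SE 0.23), Cyp4f15 at -1.48 (SE 0.27) and Cyp2d22 at -0.92 (SE 0.15), and for these 4 all 15 libraries lay below saline. Higher than saline were Cyp51 (0.88, SE 0.13), Cyp7b1 (0.74, SE 0.17), Cyp4f18 (0.63, SE 0.18), Cyp4v3 (0.58, SE 0.09) and Cyp4f16 (0.52, SE 0.12). All 15 libraries lay above saline for Cyp51 and for Cyp4v3. All 19 genes had the same sign in both number ranges, with 19 called in range 2 and 2 in range 1, which holds 2 saline libraries. The fall of Cyp26b1 (-2.39) was lost without the pair of high saline libraries (-1.17, adjusted p = 0.0976).

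Genes that work with the P450s were counted over lists, beside which 56.8% of all genes tested were called at 4 weeks and 59.2% at 15 weeks. Of 10 tested electron donors and partners, 2 rose and 3 fell at 4 weeks and 3 rose and 2 fell at 15 weeks, a share near that of all genes. The reductase Por, which serves all microsomal P450s, fell by -1.12 (SE 0.17, edgeR adjusted p = 6.62e-07) and -0.62 (SE 0.19, adjusted p = 0.00553), and Pgrmc1, a heme-binding partner, by -0.76 and -1.23. Fdx2, a mitochondrial ferredoxin on the list, rose by 0.98 and 1.07, and whether it gives electrons to these P450s was not tested. Of 23 tested receptors and factors known to control P450 genes, 3 rose and 8 fell at 4 weeks and 9 rose and 7 fell at 15 weeks. The list's median log2 fold change was -0.17 at 4 weeks and 0.23 at 15 weeks, against 0.01 and 0.01 over all genes. On the lower side, the retinoic acid receptor Rarb stood at -1.16 and -1.52 and the glucocorticoid receptor Nr3c1 at -0.62 and -0.84.

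Of 12 genes of heme synthesis and breakdown, 7 rose and 1 fell (Fech, the last step of synthesis) at each time. The share of these 12 called is near that of all genes, 56.8% at 4 weeks and 59.2% at 15 weeks. Over all genes 29.3% rose at 4 weeks and 31.2% at 15 weeks. The heme-degrading Hmox1 rose by 1.74 and 2.82. Of the 2 P450 genes not named Cyp, the thromboxane synthase Tbxas1 rose by 1.85 and 2.26 and the prostacyclin synthase Ptgis fell by -0.42 and -0.73. The other oxidising enzymes (flavin monooxygenases, aldehyde oxidases and carboxylesterases) fell in 8 of 11 at 4 weeks and 10 of 11 at 15 weeks, with none rising. Over all genes 27.5% fell at 4 weeks and 28.1% at 15 weeks. Against the isotype, 4 of those 11 rose with anti-IL-33, among them Fmo2 (1.23, SE 0.36, edgeR adjusted p = 0.0352). In that comparison 3.58% of all genes rose. The lists were drawn up with earlier results of these data known.

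Markers of several cell types changed, beside 56.8% of all genes called at 4 weeks and 59.2% at 15 weeks. The 6 club cell markers, led by Scgb1a1, summed to 14694 to 25994 CPM in saline, 5532 to 14869 at 4 weeks, 2082 to 7641 at 15 weeks, 4967 to 6774 with the isotype and 4804 to 13396 with anti-IL-33. Of these 6, 5 fell and 1 rose at each time against saline. With anti-IL-33 against the isotype 2 of the 6 rose, where 3.58% of all genes rose and 3.14% fell. In that comparison 3 of 7 ciliated, 2 of 6 fibroblast and 1 of 6 type I alveolar cell markers also rose. Of the neutrophil markers 3 of 5 fell there, and of the endothelial markers 1 of 8. Ciliated cell markers fell in 6 of 7 at each time, and markers of type I alveolar cells, endothelium and fibroblasts fell in 5 of 6, 6 of 8 and 5 of 6 at 15 weeks. Type II alveolar cell markers rose in 5 of 8 at 4 weeks and 8 of 8 at 15 weeks, and none of the 8 passed with anti-IL-33 against the isotype. Markers of monocytes and interstitial macrophages rose in 5 of 6 at each time, and those of neutrophils in 2 of 5 at 4 weeks and 5 of 5 at 15 weeks. The part of cell make-up in the P450 results was not tested.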

How the data were processed

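Whole-lung mRNA libraries were described at the level of genes. The deposited values are whole counts, not normalized, 1 row for each Entrez gene, and build GRCm38 is named per the labels. The aligner and counter are not stated by the labels or the file header. Symbols were matched for 24375 of the 24475 IDs through RefSeq (GRCm38.p6), and the 100 unmatched IDs held 2.62% of counts. Groups came from sample titles. The tests used edgeR 4.0.16 in R 4.3.3 (TMM, low-count filter by group, quasi-likelihood, a term for the number range, all 43 libraries in 1 fit, Benjamini-Hochberg over 15598 genes), tested on simulated data first. DESeq2 1.42.0 and limma 3.58.1 (voom) were alternatives, and the closing text gives their effect. Every P450 gene is named. Those called with an absolute log2 fold change of at least 1, and the 5 highest per kb of exon, are given by lowest, median and highest value. Up to 4 called genes with the smallest p were named per list. The members and lists were chosen with earlier results of these data known.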

Additional observations from a re-analysis of the deposited data

Results flagged for a closer look

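In groups of 4 to 10 libraries, the highest or lowest library of a P450 gene was looked at for a gap to its nearest neighbour that is large for the group's range (Dixon's 95% critical value). Of 76 groups, over 19 genes, 10 held such a library, and chance alone gives about 1 in 20. Replicate 3 at 4 weeks was the lowest for Cyp4v3 (45.9 CPM, others 66.3 to 83.6) and the highest for Cyp2e1 (9.91 CPM, others 1.13 to 5.66) and Cyp1a1 (19.1 CPM, others 0.763 to 8.29), and it is 1 of the 2 libraries that stood apart across genes. The other of these, replicate 1 at 15 weeks without antibody, was the lowest for Cyp51 (29.6 CPM, others 63.1 to 86.7). Replicate 3 of the isotype group was the lowest for Cyp2s1 (42.1 CPM, others 56.9 to 58.9) and the highest for Cyp7b1 (22.03 CPM, others 16.8 to 17.4). Isotype replicate 2 was the highest for Cyp4a12b (0.590 CPM, others 0.116 to 0.195). Saline replicate 3 was the lowest for Cyp4v3 (49.2 CPM, others 64.2 to 73.2), 4-week replicate 8 the lowest for Cyp7b1 (10.97 CPM, others 14.2 to 16.1) and 15-week replicate 6 the highest for Cyp1a1 (3.84 CPM, others 0.174 to 1.10).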

How the results depend on the processing

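No paired analysis was possible because the labels give the samples no replicate numbers that groups share. Over the alternative settings that give single-gene values, the 77 called pairs of a P450 gene and a comparison gave 1062 values, of which 929 kept direction and call, 133 kept direction without the call and 0 reversed. With DESeq2 74 of the 77 pairs kept the call and 3 lost it, and with limma-voom 73 kept it and 4 lost it. In number range 1 alone, called P450 genes numbered 11 at 4 weeks, 15 at 15 weeks, 1 for anti-IL-33 against isotype and 2 against saline. In number range 2 alone they numbered 1 between 15 and 4 weeks and 0 for anti-IL-33 against isotype. Between 15 and 4 weeks the count was 10 with an offset for GC content and exon length and 8 without TMM scaling, the latter added after seeing the data. For anti-IL-33, the count was 19 against no antibody and 18 against the mean of isotype and no antibody, and 1 to 9 when 1 isotype library was left out. Over all genes 35.8% were called against no antibody, and 58 to 935 genes without 1 isotype library, against 1047 with all 4. For the other settings calls over all genes are not given, so whether the P450 counts moved with those of all genes was not tested. Each range alone has fewer libraries; the cause of the other shifts was not tested. Depth limits the genes under 1 CPM, Cyp46a1, Cyp4a12b and Cyp2c23, which have no count in some libraries.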
